A study of Mus musculus with 6 samples.

Results

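Protein-coding genes that are transcribed from a single exon were examined for H3K79me2 in N2a cells, a mouse neuroblastoma line. They are the protein-coding genes of GENCODE mouse release 21 on chromosomes 1 to 19 whose every annotated transcript has 1 exon. Genes whose symbols begin with Olfr, Vmn, Taar, Tas2r, Hist, Pcdh, Sox, Jun or Ier were left out. These prefixes stand for olfactory, vomeronasal, trace amine and taste receptor, histone, protocadherin, Sox, Jun and Ier genes. Relatives with other symbols stayed in, such as the histone genes H1f0, H1fx and H2afx and the vomeronasal receptor gene V1ra8. The rule found 851 genes of 20807 protein-coding genes on these chromosomes. There were 1161 single-exon genes in all, of which 310 were left out by symbol, and 19646 genes had introns. The 851 genes are short, from 57 to 11294 bp with a median of 1306 bp, against a median of 19494 bp for multi-exon genes. For 362 of them the symbol is a provisional one, Gm with a number or a name that ends in Rik.

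The mark was mapped by ChIP-seq, in which chromatin bound by an antibody against H3K79me2 is sequenced, in 2 groups of N2a cells. Control cells (CTR) carried the plasmid pLKO.1-shCTR and knockdown cells (NPM1 KD) carried pLKO.1-shNpm1, which expresses a short hairpin RNA against Npm1, the gene of the nucleolar histone chaperone nucleophosmin. Cells of both groups were selected with puromycin and harvested at 3 days in vitro, and each group had 2 libraries. The knockdown is partial by its nature, the cells are 1 cancer line, and peak lists hold no expression values, so the level of Npm1 was not checked here.

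H3K79me2 is the dimethylated form of a lysine on the surface of the core of histone H3 and is written by the methyltransferase DOT1L. It marks transcribed genes, where it lies downstream of the transcription start site and fades along the gene body, in long genes mostly over the first intron. Genes without introns offer no such intron: many arose as retrocopies of spliced mRNAs, and others are compact developmental regulators, receptors or members of clustered families.

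The starts of 4 genes are printed to show the range of base composition at single-exon genes, because the results on CG dinucleotides turn on it. RefSeq promoter windows on GRCm38.p6, from 250 bases before to 50 after a transcription start, were at hand for 489 of the 851 genes. Irf2bpl (chr12:86884765-86885064, minus strand) and the Wnt receptor gene Fzd7 (chr1:59481897-59482196, plus strand) carried the mark in all 4 libraries. Fzd10 (chr5:128600856-128601155, plus strand), of the same receptor family, and the interferon gene Ifna1 (chr4:88849837-88850136, plus strand) carried it in none. Each sequence reads 5′ to 3′ on the strand of the gene, and capitals mark each CG.
Irf2bpl: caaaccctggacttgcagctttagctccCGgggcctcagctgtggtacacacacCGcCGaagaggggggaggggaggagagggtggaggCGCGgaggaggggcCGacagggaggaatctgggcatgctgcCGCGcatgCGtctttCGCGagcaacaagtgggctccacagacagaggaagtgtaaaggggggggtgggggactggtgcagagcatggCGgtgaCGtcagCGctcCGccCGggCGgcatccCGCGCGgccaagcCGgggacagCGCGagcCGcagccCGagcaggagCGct
Fzd7: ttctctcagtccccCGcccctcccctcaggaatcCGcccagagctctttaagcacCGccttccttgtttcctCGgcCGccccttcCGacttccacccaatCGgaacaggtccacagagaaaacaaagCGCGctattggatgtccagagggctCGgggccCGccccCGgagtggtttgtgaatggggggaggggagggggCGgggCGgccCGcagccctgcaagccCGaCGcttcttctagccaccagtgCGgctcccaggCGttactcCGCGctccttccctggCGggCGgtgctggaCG
Fzd10: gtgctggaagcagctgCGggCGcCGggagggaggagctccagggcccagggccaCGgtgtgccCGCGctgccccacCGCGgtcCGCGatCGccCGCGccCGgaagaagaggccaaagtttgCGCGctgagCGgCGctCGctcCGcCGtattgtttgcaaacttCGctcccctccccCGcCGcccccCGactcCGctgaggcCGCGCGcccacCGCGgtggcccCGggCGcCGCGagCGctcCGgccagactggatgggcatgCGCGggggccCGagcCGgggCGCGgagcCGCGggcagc
Ifna1: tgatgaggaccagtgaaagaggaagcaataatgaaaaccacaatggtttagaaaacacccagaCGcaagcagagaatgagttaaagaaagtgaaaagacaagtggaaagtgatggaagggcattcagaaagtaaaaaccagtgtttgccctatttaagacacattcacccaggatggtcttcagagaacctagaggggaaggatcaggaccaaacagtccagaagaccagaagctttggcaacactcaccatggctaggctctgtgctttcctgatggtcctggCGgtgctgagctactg
These windows hold 26 CG in Irf2bpl, 24 in Fzd7, 45 in Fzd10 and 2 in Ifna1. The numbers depend on the start used: around the GENCODE start, which the results below use, Irf2bpl holds 29, Fzd7 25 and Fzd10 18, so the order of Fzd10 turns from highest to below both marked genes.

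The deposited files are lists of MACS2 peaks, 1 broad and 1 narrow list per library. A gene was counted as marked in a library when a broad peak shared at least 1 bp with its body, and its window was the body with 3 kb on each side. The depth of the libraries in reads is unknown. The background pileup that fold and p of the narrow peaks imply lay between 7.65 in CTR 2 and 11.9 in CTR 1, and broad peaks covered 223 to 253 Mb. Marker genes fitted the labelled cell type in part. Of 12 genes of sympathetic neuroblasts and neurons, 8 (among them Hand2, Gata3, Th and Tubb3) were marked in all 4 libraries and 4 (among them Dbh, Nefm and Nefl) in none, and of 6 genes of other cell types none was marked in all 4. The labels name replicates 1 and 2, which the methods tie to passages and transfection batches, so the spread between libraries of a group may include batch differences.

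Most single-exon genes carried no H3K79me2 peak, and most of those that did carried it in all 4 libraries. Of the 851 genes, 25.7% were marked in CTR 1 and 24.1% in CTR 2, against 26.8% and 24.9% in NPM1 KD 1 and 2. Of the 851, 200 (23.5%) were marked in all 4 libraries, 617 (72.5%) in none, and 14, 10 and 10 in 1, 2 and 3 libraries. Among multi-exon genes 52.8% were marked in all 4 libraries and 44.1% in none. The share marked in single-exon minus that in multi-exon genes was -29.0 ± 0.382 percentage points (SD, n = 4 libraries), below 0 in 4 of 4 libraries (exact sign-swap test over libraries, two-sided, p = 0.125, the smallest it can give). All libraries see the same genes, so this p speaks of the libraries and not of the sampling of genes. The difference varied with the genes and the overlap taken: among genes of at most 10 kb the difference was -13.1 percentage points, and with at least 50% of the body under peaks it was -7.97.

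The share marked differed with the place of a gene among its neighbours. The genes were split into 498 lone genes with no other protein-coding gene within 3 kb, 123 near genes with one within 3 kb but not over the body, and 230 overlapping genes. The mean share marked was 11.6% of lone, 41.5% of near and 46.5% of overlapping single-exon genes. For multi-exon genes of at most 10 kb the means were 19.2%, 55.0% and 66.7% in the same order.

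**Figure D1:**
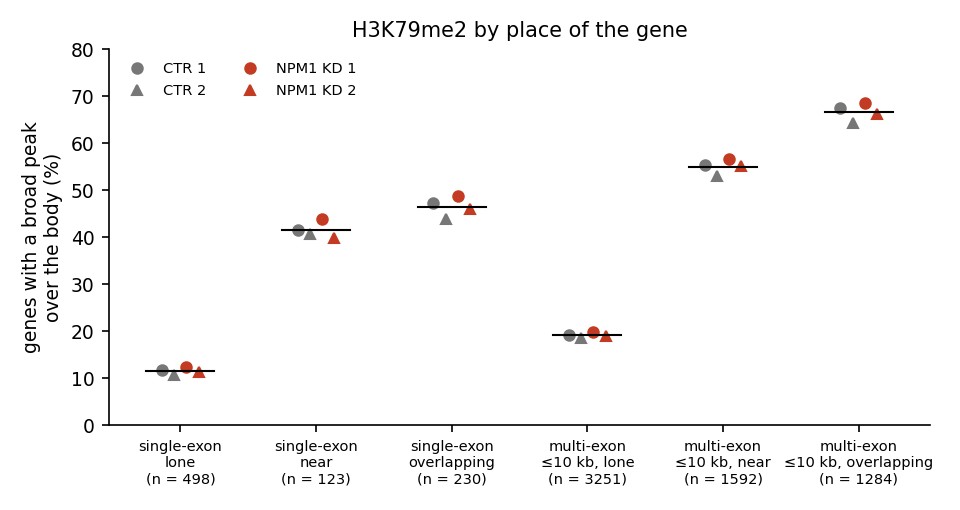
Share of genes with a broad H3K79me2 peak over the body, in percent, for lone, near and overlapping single-exon genes and for multi-exon genes of at most 10 kb in the same 3 places. Each point is a library, the line is the mean of the 4, and lone single-exon genes sit lowest, around 11.6%.

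Over the overlapping genes the mark could not be assigned to the single-exon gene itself. Of the 230, 169 lie wholly inside another protein-coding gene. A partner was marked in all 4 libraries for 154 of the 230, and 99 of these 154 were marked in all 4 themselves. Of the 76 with no such partner none was marked in all 4. Any peak over the body of such an inner gene also lies over the gene around it. For these inner genes the absence of marking without a marked partner, and the shared peak counted next, follow from the layout. For 96 of the 99 the broad peak also covered another protein-coding gene in all 4 libraries, as it did for 27 of the 48 near genes and 2 of the 53 lone genes marked in all 4. Dnajb7, of the DnaJ co-chaperone family, overlaps a neighbour. Its window was wholly covered in every library, but the summit of the strongest narrow peak over it lay 7057 to 10713 bp downstream of its start. For the melanocortin receptor gene Mc1r the summit lay 6605 to 7169 bp from the start of a body of 3638 bp. The retrogene Mcts2 and the bZIP transcription factor gene Cebpb were likewise covered over the whole window and overlap another gene. The accounts of position and length below therefore use the lone genes.

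Whether lone single-exon genes were marked less often than multi-exon genes depended on length. Over all lone genes of at most 10 kb, the share of single-exon minus that of multi-exon genes was -7.51 ± 0.156 percentage points (SD, n = 4 libraries), below 0 in 4 of 4 libraries (exact sign-swap test, two-sided, p = 0.125). Among genes of at most 10 kb with no other gene of any type within 3 kb the difference was -5.29 points. Among lone genes of at most 10 kb without provisional symbols it was -3.31 points, an alternative added after the data were seen. Of genes up to 500 bp, 0 of 53 single-exon genes were marked in all 4 libraries, which the exact binomial interval (95%) allows to be up to 6.72%. Between 500 and 1000 bp the mean share marked was 1.39% of 144 single-exon genes against 5.08% of 59 multi-exon genes. Between 1000 and 2000 bp it was 10.8% and 10.9%, and the difference of -0.0857 points was smaller than its spread of 0.522 (SD, n = 4). Without provisional symbols this bin had 14.6% of 108 against 11% of 154. From 2000 to 4000 bp the difference was 3.01 points in favour of single-exon genes, with 21.9% of 112 against 18.9% of 668. For marking in all 4 libraries the exact intervals here were 13.5% to 29.2% and 15.7% to 21.7%, which meet. From 4000 to 10000 bp the difference was 25 points, with 45.3% of 32 single-exon genes against 20.4% of 2315 multi-exon genes. The intervals were 26.4% to 62.3% and 17.8% to 21.1%, which do not meet. These length bins were chosen after the data were seen, and the multi-exon genes of the last bin are longer, with a median of 6489 bp against 4936 bp.

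**Figure D2:**
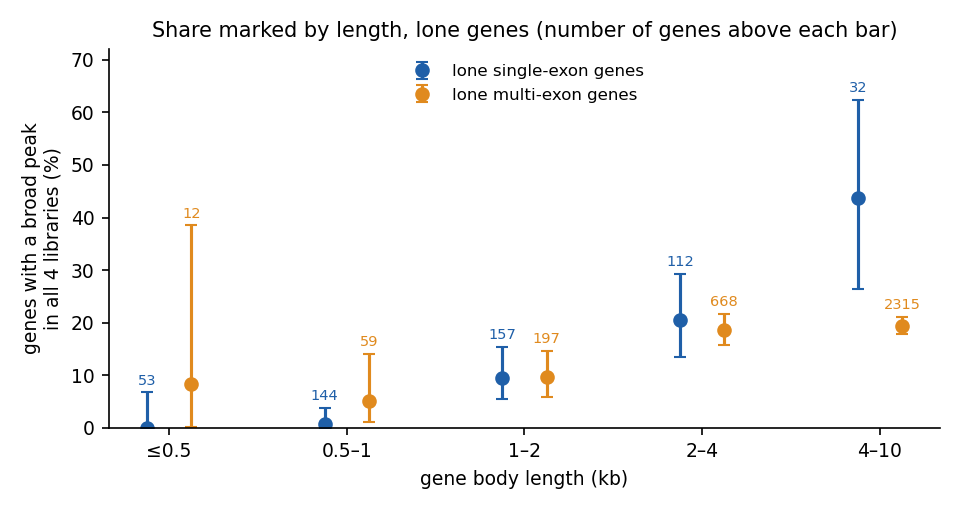
Share of lone genes with a broad peak in all 4 libraries, in percent, by length of the gene body in kb, for single-exon (blue) and multi-exon (orange) genes, with exact 95% binomial intervals that cover counting error only and the number of genes above each. The share of single-exon genes goes from 0 of 53 in the shortest bin to 14 of 32 in the longest.

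Marked and unmarked lone genes differed in the CG content at their starts. Around the GENCODE start, in the same window of 300 bases read from the GRCm38.p6 genome, the 53 lone single-exon genes marked in all 4 libraries had a median of 20 CG and the 435 marked in none a median of 3.00, against 12 over all protein-coding genes. At least 10 CG were found in 84.9% of the 53, in 20.7% of the 435 and in 54.5% of all protein-coding genes. The 241 unmarked lone genes of over 1 kb had a median of 5.00 CG. Among lone genes with at least 10 CG, 34.7% and 31.9% of 144 single-exon genes were marked in CTR 1 and 2, and 36.8% and 34.0% in NPM1 KD 1 and 2. The 812 multi-exon genes of at most 10 kb with such starts were marked in 61.9% to 63.9%. The difference was -28.6 ± 1.18 percentage points (SD, n = 4 libraries, exact sign-swap test, two-sided, p = 0.125), and among genes with under 10 CG it was -2.17 ± 0.291 (same test, p = 0.125).

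Genes above 1000 bp were also split by CG and by length together, and the differences between classes in a bin were not tested. In the bin of 2000 to 4000 bp, 29.2% of 65 single-exon genes with at least 10 CG were marked in all 4 libraries (exact interval 18.6% to 41.8%) against 57.1% of 177 multi-exon genes (49.4% to 64.5%), and these intervals do not meet. In the bin of 4000 to 10000 bp the shares were 54.5% of 22 (32.2% to 75.6%) and 64.0% of 594 (60.0% to 67.8%), which do meet. From 1000 to 2000 bp they were 31.7% of 41 (18.1% to 48.1%) and 41.2% of 34 (24.6% to 59.3%), which also meet. Among genes with under 10 CG the order differed by length, with 1.72% against 3.07% up to 2000 bp, 8.51% against 4.68% up to 4000 bp and 20% of 10 against 4.01% up to 10000 bp, and these intervals meet in each bin. In the longest bin 22 of 32 single-exon genes had such a start but 594 of 2315 multi-exon genes did. The split by CG was added after the data were seen.

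**Figure D3:**
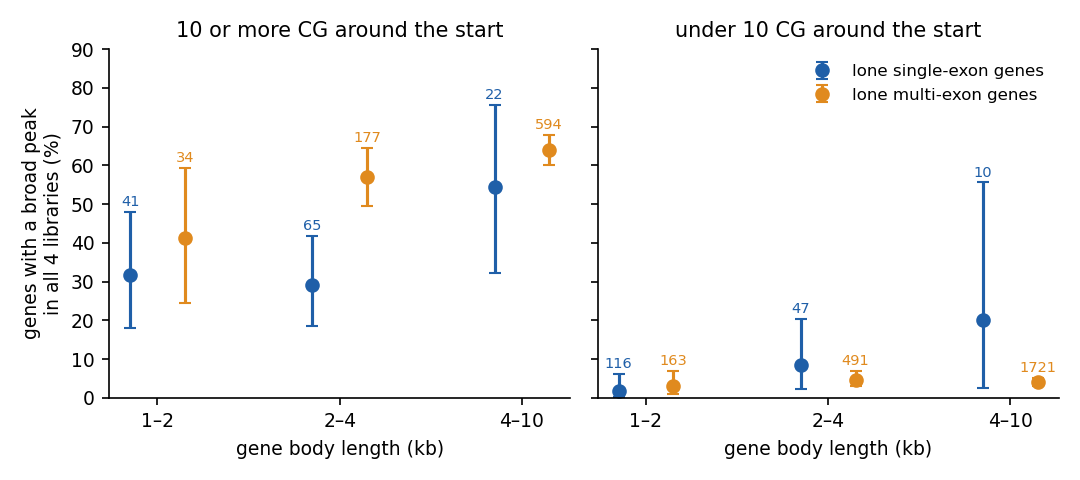
Share of lone genes with a broad peak in all 4 libraries, in percent, by body length in kb, for genes with at least 10 CG (left) and under 10 CG (right) in 300 bases around the start. Blue points are single-exon and orange points multi-exon genes, with exact 95% binomial intervals and the number of genes above each, and among CG-rich starts the blue points lie below the orange ones in the 3 bins, with intervals that meet in all but the bin of 2 to 4 kb.

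Where a lone single-exon gene was marked, the mark lay over the body and the flank downstream of it more than over the flank upstream. In the marked genes of each library, 25.6% to 28.0% of the 3 kb upstream, 79.5% to 82.7% of the body and 47.5% to 50.4% of the 3 kb downstream lay under broad peaks. Downstream exceeded upstream coverage by 22.3 and 21.9 percentage points in the CTR and by 21.2 and 23.2 in the NPM1 KD libraries, a mean of 22.2 ± 0.825 (SD, n = 4, exact sign-swap test, two-sided, p = 0.125). The same difference was 12.9 to 15.3 points in lone multi-exon genes of at most 5 kb, lower by 8.13 ± 0.304 (SD, n = 4, exact sign-swap test, two-sided, p = 0.125). These multi-exon genes were longer, with a median of 3541 bp against 2799 bp, and the part of length in this was not tested. In marked single-exon genes with no other gene of any type within 3 kb, downstream exceeded upstream coverage by 20.8 points.

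Measured from the start, the domains of both classes ended at a like distance. The broad domain over the 53 lone genes marked in all 4 libraries had a median length of 3892 and 3734 bp in CTR 1 and 2, and of 4661 and 4258 bp in NPM1 KD 1 and 2. It passed the 3′ end in 39 to 42 of the 53. Its downstream edge lay at a median of 3824 to 4013 bp from the start, and at 3991 to 4284 bp in the 225 multi-exon genes. In the 27 single-exon genes of median length or shorter, with a median of 1830 bp, this edge lay at 3274 to 3648 bp and passed the end in 24 or 25 of them. In the 26 longer ones, with a median of 4056 bp, it lay at 4618 to 4912 bp and passed the end in 15 to 18. The summit of the strongest narrow peak lay in the body in 87.5% to 94.7% of marked lone genes, at a median of 811, 913, 887 and 1272 bp from the start in the 4 libraries.

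**Figure D4:**
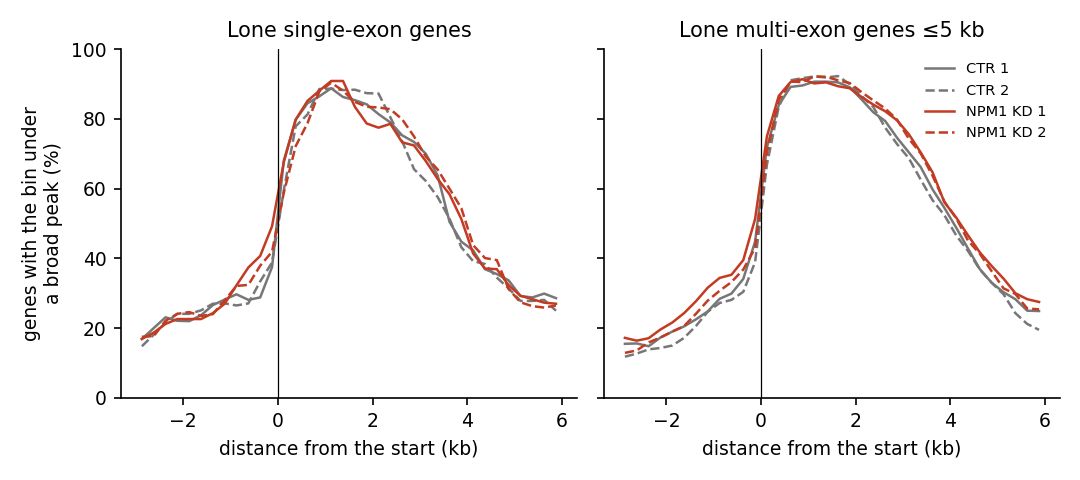
Share of marked lone genes whose 250 bp bin lies under a broad peak, in percent, against the distance of the bin from the start in kb, for single-exon genes (left, 54 to 62 per library) and multi-exon genes of at most 5 kb (right, 227 to 243). Each line is a library, and near 1 kb downstream of the start the single-exon genes reach 88.7% to 90.9%.

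The folds of these genes lay close to those of short genes with introns, and the difference was not tested. The strongest narrow peak over a body had a median fold over the MACS2 background of 13.4, 12.3, 15.8 and 11.3 in CTR 1, CTR 2, NPM1 KD 1 and NPM1 KD 2 for the 53 lone single-exon genes. For the 225 multi-exon genes these medians were 13.0, 12.3, 13.5 and 11.4. Within each list 30 to 37 of the 53 genes held a peak at or above the 90th percentile of fold.

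The lone genes with the highest folds encode proteins of several kinds. Irf2bpl (chr12:86880701-86884798), a transcriptional regulator needed in neurons, led with folds of 56.4 and 49 in CTR 1 and 2 and of 54.5 and 33.4 in NPM1 KD 1 and 2. Its window was wholly covered in all 4 libraries, by a domain of 15448 to 17686 bp that began 7735 to 9322 bp upstream of its start. Next came Tspyl1 (chr10:34282190-34285275), of the nucleosome assembly protein family, with 45, 42.9, 45.9 and 30.2 in the same order. Its domain of 24458 to 25495 bp ran 21146 to 21945 bp beyond the 3′ end, and it is one of the few lone genes whose peak reached another protein-coding gene. For Mkrn3 (chr7:62417593-62420139), an imprinted gene of a ubiquitin ligase that restrains puberty, the fold was 39.8, 40.6, 33.9 and 29.6. The domain of Mkrn3 began 33 to 72 bp before the start and ended 6392 to 6772 bp beyond the end, so the whole mark lay over and behind this gene. The folds of NPM1 KD 2 were the lowest of the 4 libraries for each of these genes.

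Foxd1 (chr13:98354242-98359305), a forkhead factor of kidney stroma and forebrain development, carried the longest domain of the lone genes ranked highest, with 48817 and 47431 bp in CTR 1 and 2 against 66695 and 62937 bp in NPM1 KD 1 and 2. Most of it, 39642 to 58763 bp, lay beyond the 3′ end, and both NPM1 KD domains were longer than both CTR domains. No other protein-coding gene was reached by it. Fem1a, a substrate receptor of a ubiquitin ligase, carried the mark over 99.7% to 100% of its 6801 bp with little beyond the start, 1.80% to 4.23% of the upstream 3 kb. Purb, which binds purine-rich single strands, and Tbcc, a tubulin folding cofactor, were covered over the whole body and the whole upstream flank. For the endosomal GTPase gene Rhob the entire window was covered in each library, and the strongest summit over it lay at 977 and 997 bp from the start in CTR 1 and NPM1 KD 1 but at -7427 and -8374 bp, upstream of the gene, in CTR 2 and NPM1 KD 2.

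Of the other lone genes ranked highest, Utp3, a nucleolar factor of the small ribosomal subunit, had folds of 36.1, 35.7, 30.7 and 29.2, and the poly(C)-binding protein gene Pcbp1, itself a retrogene, 33.8, 35.8, 28.7 and 23.7. Sf3b5, a subunit of the splicing factor SF3b, stood apart in position. Peaks covered 21.4% to 26.5% of its annotated body, at its 3′ side, 0% of the flank upstream and 98.4% to 100% of the flank downstream, with the summit at 3485 to 3584 bp from the annotated start. Its annotated start holds 3 CG.

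The 5 longest single-exon genes fell on both sides. Mars2, the mitochondrial methionyl-tRNA synthetase gene of 11294 bp, had 96.4% to 100% of its body under peaks. Pigm, of glycosylphosphatidylinositol anchor synthesis, and Purb had 100% in each library. Purb is lone, whereas Mars2 and Pigm lie near another protein-coding gene. Paqr9 (8367 bp) and Klhdc7a (7807 bp) had no peak in the window in any library. Paqr9 has 47 CG around its start and Klhdc7a has 4.

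Transcription factor genes without introns held both marked and unmarked members, and the counts below stand beside 23.5% of all 851 genes marked in all 4 libraries and 72.5% in none. Among 12 forkhead genes Foxd1 and Foxc1 were marked in all 4 libraries and 10, among them Foxb2 and Foxc2, in none, although 10 of the 12 hold at least 10 CG around the start. Foxc1 was far weaker than Foxd1, with folds of 3.03, 2.89, 3.91 and 3.29 and 20.2% to 53.8% of the body covered. The 3 POU factors (Pou3f1 and Pou3f2 among them) and the 6 neural bHLH factors (Atoh1 and Bhlhe22 among them), regulators of neural fate, had no broad peak over the body in any library, and all 3 POU genes hold at least 10 CG. Of the bZIP factors, Cebpb was marked in all 4 libraries and Mafa in NPM1 KD 1 alone, over 21% of the body. The list named for zinc finger factors held 4 genes, of which Purb is no zinc finger gene. Purb and the neuroendocrine repressor gene Insm1 were marked in all 4 libraries, Insm1 with folds of 25.5, 23.8, 23.7 and 15.9, whereas its paralogue Insm2 and Klf14 were marked in none.

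Receptor and channel genes ranged from strong marking to none within a family. The 6 frizzled genes encode receptors for Wnt ligands, and all hold at least 11 CG around the GENCODE start. Fzd7 (chr1:59482424-59486955) stood out with folds of 28.4, 28.2, 24.4 and 22.2 and its whole body covered. Fzd2 had folds of 2.90 to 4.11 and Fzd9 of 1.97 to 2.90, Fzd1 had a short broad peak in both NPM1 KD libraries only, and Fzd8 and Fzd10 had none. Of 7 monoamine and muscarinic receptor genes, Chrm4 and Adra2b were marked in all 4 libraries and 5, among them Adra2c, in none. The window of Chrm4 was wholly covered, but its strongest summit lay at -1676 to -2096 bp, upstream of its start. Adra2b had folds of 2.43 to 3.05. Of 8 other G protein-coupled receptor genes Mc1r and Gpr135 were marked in all 4, Gpr62 in 3 and 5 in none. The 3 voltage-gated potassium channel genes, Kcna3 and Kcna5 among them, had no broad peak over the body, and Kcna3 holds 37 CG around its start.

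Of 8 genes of the general gene expression machinery, 5 were marked in all 4 libraries, against 23.5% of all 851, and these counts carry no test. Only 4 of the 8 are lone. Among single-exon genes 10.6% of lone, 39.0% of near and 43.0% of overlapping ones were marked in all 4 libraries. Of the 5 marked, only Utp3 is lone. Rrs1, Kti12, Thap11 and Exosc6 each lie near or overlap another protein-coding gene, and the part of place in the count was not tested. Rrs1, a regulator of ribosome assembly, had folds of 40.0, 33.0, 34.5 and 30.0, and the transcription factor gene Thap11 26.9, 21.7, 26.7 and 21.6, both with the whole body covered. Pabpc6 and Rbmxl2, which are retrogenes of RNA-binding proteins, had no broad peak over the body. Of 5 imprinted genes Mkrn3 and Mcts2 were marked in all 4 libraries, and Ndn and Magel2, of the same imprinted domain on chromosome 7 as Mkrn3, in none. Of 13 testis retrogenes only the polyadenylation factor gene Cstf2t was marked, with folds of 37.4, 36.5, 35.6 and 29.0 and a summit at 845 to 901 bp from its start. It overlaps another gene. The heat shock genes Hspa1a and Hspa1b had no broad peak over the body in any library. They are near-identical copies, and the authors removed reads of low mapping quality, so a missing peak there is uncertain.

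Of 3 further families no member was marked. Broad peaks over the body were found in none of 52 keratin-associated protein genes of hair, none of 17 interferon genes and none of 10 Mas-related and formyl peptide receptor genes, in any library. Most of these genes are lone (44, 16 and 10), and of all lone single-exon genes 87.3% were marked in no library, so these counts are not read as particular to the families. No member of these 3 families holds 10 CG around its start, the highest being 9, 6 and 4. Among 9 claudin and connexin genes of cell junctions, Gjd3 was marked in 3 libraries and 8 in none.

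The 2 kinds of list differed for a few genes. Gm9008, Rpl10-ps3, Amd2, Kbtbd6 and Gm10053 had a narrow peak over the body in all 4 libraries and a broad peak in none, with folds between 1.86 and 4.81. The peak names of the broad lists contain the word filtered and those of the narrow lists do not. Whether reads of similar sequences elsewhere entered the narrow lists was not tested. Rps27rt had a broad peak in all 4 libraries and a narrow one in none. Genes in this paragraph were named after their values were seen.

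The remaining question was whether the knockdown altered the mark on single-exon genes. The CTR libraries had a mean share marked of 24.9% ± 1.16 (SD, n = 2) and the NPM1 KD libraries one of 25.9% ± 1.33 (SD, n = 2), a difference of 0.940 percentage points (exact permutation test, two-sided, p = 0.667, where 2 against 2 libraries cannot go below 0.333). Between libraries of the same replicate number it was 1.06 and 0.823 points, and without NPM1 KD 1 it was 0. Mean window coverage was 16.8% and 15.8% in CTR 1 and 2 and 18.0% and 17.0% in NPM1 KD 1 and 2, a difference of 1.18 points with both NPM1 KD values above both CTR values (two-sided exact permutation test, p = 0.333). Same-numbered libraries differed by 1.2 and 1.16 points. Without CTR 2 the difference in coverage was 0.702 and without NPM1 KD 1 it was 0.682. CTR 2 was lowest and NPM1 KD 1 highest in both measures, with the 2 lowest background pileups (7.65 and 8.99), and the part of depth was not tested.

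A broad peak in the window of at least 1 library was held by 267 of the 851 genes, and only these could be compared gene by gene. Window coverage was higher in both NPM1 KD than in both CTR libraries for 86 of the 267 (32.2%), against 48.2% of all 11906 protein-coding genes compared in the same way. It was higher in both CTR libraries for 8 (3.00%), against 2.60%. The 86 became 156 without CTR 1 and 164 without NPM1 KD 2, and the 8 became 17 to 48 when any of the 4 libraries was left out, since 2 against 1 library separate more easily. Of the 267 windows, 24 were wholly covered in all 4 libraries and so could not differ, and the part of this in the shares was not tested. The median difference was 2.24 points in the 267 and 2.41 in all protein-coding genes. In lone multi-exon genes of at most 10 kb, 36.9% of 680 were higher in both NPM1 KD libraries, and in lone single-exon genes 22 of 70. A test across all genes on log2(covered bp + 1000) with limma called 0 of the 267 at an adjusted p under 0.05, and 1 of 11906 genes (0.00840%) in all. At an unadjusted p under 0.05 it gave 23 of the 267, 22 of them higher in NPM1 KD, which is 8.61% against 14.6% of all genes. No change at a single gene below therefore passed the test.

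Of the 267 genes, 63 lie near and 134 overlap another protein-coding gene, and of the 5 named for the largest difference towards NPM1 KD all but 6030445D17Rik do so. Papolb (chr5:142525838-142530076), a testis poly(A) polymerase gene that overlaps another gene, had 7.2% and 5.43% of its window covered in CTR 1 and 2, and 36.5% and 33.2% in NPM1 KD 1 and 2. The fitted log2 difference was 1.47 ± 0.0824 (SE), with an adjusted p of 0.240 in limma, the lowest among the 267. Gm6583 had 14.7%, 9.77%, 65.6% and 18.7%, so NPM1 KD 1 alone stood far above the rest. Gm47841 had 43.4%, 36.2%, 74.5% and 52.7%, and AW011738 had 68.7%, 63.2%, 88.1% and 90.2%. For the lone gene 6030445D17Rik the values were 18.0%, 10.1%, 39.8% and 32.8%, with folds no higher than 3.4. Cdk5r2 (chr1:74854934-74857732), a lone gene of a neuronal activator of the kinase Cdk5, was named after its values were seen. Its window was covered over 38.8%, 38.8%, 63.5% and 57.7%, and the difference lay in both flanks: the upstream 3 kb had 0% in both CTR libraries against 45.3% and 35.3% in NPM1 KD.

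In the other direction the differences were smaller. Nanos1 (chr19:60755987-60759914), which encodes a translational repressor, had 70.1% and 65.7% of its window covered in CTR 1 and 2, and 57.6% and 57.2% in NPM1 KD 1 and 2. Its body was covered alike in the groups, 88.2% to 92.3%, and the difference lay in the downstream 3 kb, with 100% in both CTR libraries against 69.7% and 73.8% in NPM1 KD. Its fitted log2 difference was -0.21 ± 0.0432 (SE), adjusted p of 0.291 in limma. Fam43a had 82.2%, 80.4%, 79.5% and 72.1%, and A730071L15Rik, Gm42372 and Gm5617 differed by at most 3.84 points between the group means.

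**Figure D5:**
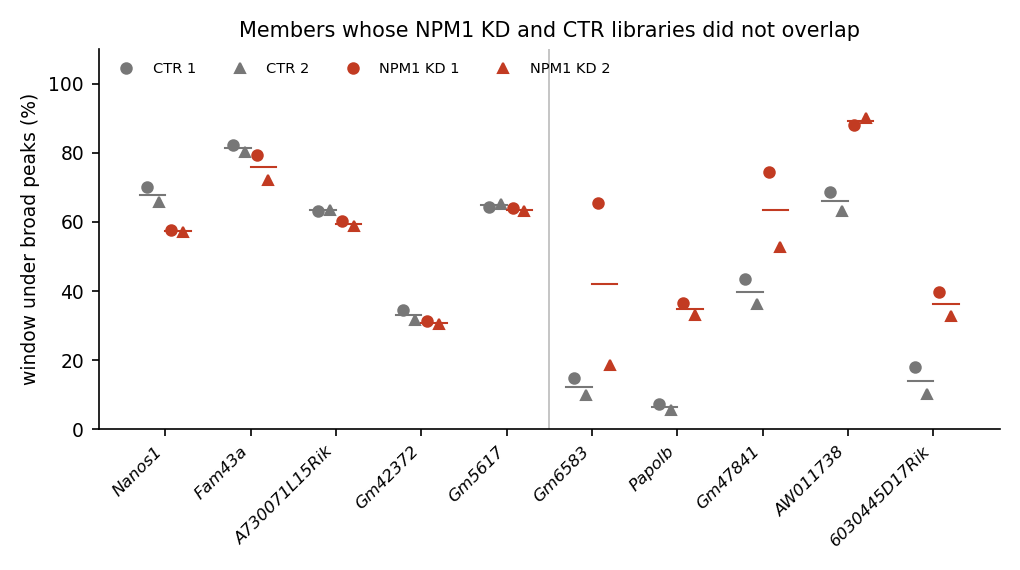
Percent of the window, the gene body with 3 kb on each side, under broad peaks in each library for the 5 genes per direction with the largest difference among those whose groups did not overlap, CTR higher on the left and NPM1 KD higher on the right. Short lines are group means of 2 libraries. For Papolb they stand apart from 7.2% or less in CTR to 33.2% or more in NPM1 KD.

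Gain or loss of the whole mark was rare. A broad peak over the body in both NPM1 KD libraries and in neither CTR library was found for 2 of the 851 genes (0.235%), against 0.288% of all protein-coding genes, and the reverse for 0 of the 851, against 0.0288%. The 2 were Fzd1, where the peaks covered 9.53% and 8.34% of the body, and Gm26602, a gene of 285 bp that overlaps another. Fzd1 had no narrow peak in any library. Its frizzled relative Fzd9 was covered over 39.9% and 35.9% of the body in the CTR libraries and 79% and 74.4% in the NPM1 KD libraries (adjusted p of 0.251 in limma on the window).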

How the data were processed

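H3K79me2 ChIP-seq peak lists of 4 N2a libraries were used, 2 CTR and 2 NPM1 KD, grouped by their labels. The pooled inputs were not analysed here, and whether they served as background in calling is not given in the sources used here. According to the methods, the authors aligned reads to mm10 with Bowtie2 (2.3.4.1 in the submitters' processing notes), removed reads of low mapping quality and called peaks with MACS2 (2.2.6 in these notes, another version in the methods). The deposited score was not used. The deposited fold is the ratio of pileup to background, and the authors also deposited −log10 p and −log10 q. Read counts were not analysed here, so the depth in reads is unknown.

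The genes and gene lists were chosen with earlier results of these data known. Overlaps, coverage and exact tests used Python 3.11.15 with scipy 1.17.1, pandas 2.3.3 and numpy 2.4.6, and matplotlib 3.10.9 drew the figures. Percentiles rank a fold within its own narrow list. For window coverage, log2(covered bp + 1000) was fitted with limma 3.58.1 (R 4.3.3) over all protein-coding genes with a broad peak in the window in at least 1 library, with Benjamini-Hochberg adjustment at 0.05, and this step was tested on simulated data. It tests the extent of called peaks, not signal. The methods tie each replicate to its own passage and transfection batch. They do not say whether same-numbered CTR and NPM1 KD libraries shared them. Deviations of same-numbered libraries from the group means had a correlation of 0.253 across genes. Tests ran without a replicate block.

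Genes named were, for each list, the 3 with the highest mean percentile of narrow fold and the first 2 by alphabet without a broad peak over the body, then the 5 per direction with the largest window difference between groups that did not overlap, the 10 lone genes marked in all 4 libraries with the highest mean percentile, and the 5 longest. Others are said to be named after their values were seen, as were Fzd1, Mafa and Gm26602. The late cornified envelope and small proline-rich list had 1 gene and was not described, and some genes that the rule named are not reported here. Alternatives were narrow lists, a −log10 q of at least 5, another overlap, other windows and gene sets, a pseudocount of 200 bp, no filter, a replicate block and each library left out.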

Additional observations from a re-analysis of the deposited data

How the results depend on the processing

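With 2 libraries per group no permutation test of a group difference could pass 0.05, so the alternatives bear on values and directions. In a fit with a replicate block, which pairs same-numbered libraries, the difference in share marked was 0.940 percentage points and in window coverage 1.18 (exact sign swap over 2 pairs, p = 0.5), and limma called 0 of the single-exon genes. With a −log10 q of at least 5, limma called 1 of 229 single-exon genes and 12 of 10791 genes in all. With narrow lists, a pseudocount of 200 bp or no filter it called 0 single-exon genes. The difference in share marked between lone single-exon and multi-exon genes was 3.01 points from 2000 to 4000 bp, where the exact intervals meet. Up to 10000 bp it was 25 points. It was -3.31 points for genes without provisional symbols and -28.6 for genes with at least 10 CG at the start. These alternatives were chosen after seeing the data. Among the 70 lone genes compared, 22 (31.4%) were higher in both NPM1 KD and 4 (5.71%) in both CTR libraries. The shares in lone multi-exon genes of at most 10 kb were 36.9% and 3.68%. With narrow lists the counts were 86 and 15. They stand without a share over all genes and are not read as a gain. Leaving out each library gave 0 to 1.88 points for the share marked, with 0 without NPM1 KD 1, 0.682 to 1.67 points for window coverage, 100 to 164 genes higher in NPM1 KD and 17 to 48 higher in CTR. The difference between groups in the share marked was 0.602 to 1.82 points under the other alternatives, and that in window coverage 0.533 to 1.21, the lowest in lone genes. The causes were not tested. The depth in reads is unknown, so its limit on weakly marked genes was not measured.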
